A study of Mus musculus with 18 samples.

Results

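The genes of the AMP-activated protein kinase (AMPK) complex were followed through 18 RNA-seq libraries of mouse skeletal muscle. The set held 7 genes of the 41388 listed in the files, namely every gene that encodes an AMPK subunit: Prkaa1 and Prkaa2 (the catalytic alpha subunits), Prkab1 and Prkab2 (the beta subunits), and Prkag1, Prkag2 and Prkag3 (the gamma subunits). They were chosen by name and not by a cut on their values, though with earlier results of these data known. All 7 passed the filter on low counts in every comparison. The 4 groups were soleus of knockout mice (4 libraries), soleus of control mice (5), gastrocnemius of knockout mice (4) and gastrocnemius of control mice (5). All mice were 12 weeks old, ate standard chow, were fasted for 4 h before the muscles were taken, and carried a floxed allele of Site-1 Protease (S1P, gene Mbtps1), a protease of the Golgi that releases transcription factors held in membranes, the SREBPs among them. Knockout mice also carried HSACre, a Cre recombinase that the promoter of human skeletal actin drives in muscle fibres, so that the other cells of the muscle kept S1P. No group carried Cre without the floxed allele. The loss of S1P and an effect of Cre itself therefore cannot be told apart. The titles place 5 control libraries in each muscle where the series text states 4 animals per group, and no label says that libraries came from separate mice or that a mouse gave both muscles, so the p-values measure the spread between these libraries, which may in part be technical.

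AMPK works as a trimer of an alpha, a beta and a gamma subunit. The alpha subunit holds the kinase domain and is switched on by phosphorylation of its activation loop, chiefly by LKB1 (gene Stk11). The beta subunit is the scaffold and carries a module that binds glycogen, and the gamma subunit binds AMP, ADP and ATP and so reports the energy charge of the cell. Since each class has several genes, several trimers can form. In muscle the kinase is known for promoting glucose uptake and fatty acid oxidation during contraction, and the gamma-3 subunit is known as a form found mainly in skeletal muscle, above all in fast glycolytic fibres, where it pairs with alpha-2 and beta-2.

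Libraries held 46.2 to 68.3 M counts in soleus of knockout mice, 46.5 to 78.2 M in soleus of controls, 41.9 to 55.8 M in gastrocnemius of knockout mice and 39.0 to 51.2 M in gastrocnemius of controls. Levels below are CPM, read counts scaled to a common library size with TMM factors, and levels compared between genes are CPM per kilobase of the gene length given in the files. The targeted gene Mbtps1 was no lower in libraries labelled knockout than in controls. Its level was 31.0 to 36.3 CPM in knockout against 30.5 to 34.4 CPM in control soleus (adjusted p = 0.754), and 34.7 to 42.7 CPM in knockout against 29.6 to 34.9 CPM in control gastrocnemius (adjusted p = 0.0945; edgeR quasi-likelihood test, Benjamini-Hochberg over all genes, as for every adjusted p below). Which exon was floxed is not stated in the labels, and a count summed over the gene does not resolve it. The muscles matched their labels: Myh7, the slow myosin heavy chain, averaged 9957 CPM in soleus and 453 CPM in gastrocnemius of controls, and Myh4, the fastest one, averaged 1947 and 83150 CPM in the same order of muscles. Within soleus Myh4 varied widely between libraries, from 127 to 4440 CPM in controls and from 223 to 5617 CPM in knockout mice. All fibre-type and cell type marker genes were detected in every library.

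Among the alpha genes, Prkaa2 stood above Prkaa1 in all 18 libraries. Per kilobase it was 5.64 to 7.70 times as high in soleus and 10.6 to 14.7 times as high in gastrocnemius. Among the beta genes, Prkab2 stood above Prkab1 in all libraries, 2.85 to 4.90 times in soleus and 17.0 to 26.2 times in gastrocnemius. Per kilobase the gamma genes changed order between the muscles. In gastrocnemius Prkag3 led in 9 of 9 libraries, at 4.98 to 7.71 times the level of Prkag1, whereas in soleus it led in 0 of 9, at 0.324 to 0.616 times the level of Prkag1. Prkag2 was the lowest gamma gene per kilobase in every library. These orders, and the shares below, rest on the whole-gene exonic lengths: 1.64 kb for Prkag1, 6.48 kb for Prkag2 and 3.68 kb for Prkag3. In CPM without length, Prkag3 stood above Prkag1 in soleus control 41 (15.8 against 11.4) and soleus knockout 40 (14.04 against 10.6). It was below Prkag1 in the other soleus libraries. Prkag2 averaged 11.7 CPM in knockout gastrocnemius, above Prkag1 at 9.78 CPM.

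The make-up of each class followed from this. Prkag3 gave 27.2% ± 4.3 (SD, n = 4) of the summed gamma level per kilobase in soleus of knockout mice, 25.4% ± 5.3 (n = 5) in soleus of controls, 82.2% ± 2.0 (n = 4) in gastrocnemius of knockout mice and 84.7% ± 1.3 (n = 5) in gastrocnemius of controls. Prkag1 took the largest share in soleus, with 61.7% in knockout mice and 63.4% in controls, against 13.7% and 12.6% in the same groups of gastrocnemius. Prkab2 held 78.8% of the beta level in knockout and 78.9% in control soleus, and 94.9% in knockout and 96.0% in control gastrocnemius. For Prkaa2 the shares of the alpha level were 86.3%, 87.4%, 92.3% and 93.5% in that order of groups. These shares are of RNA over whole genes, so that isoforms of Prkag2 were not separated.

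**Figure D1:**
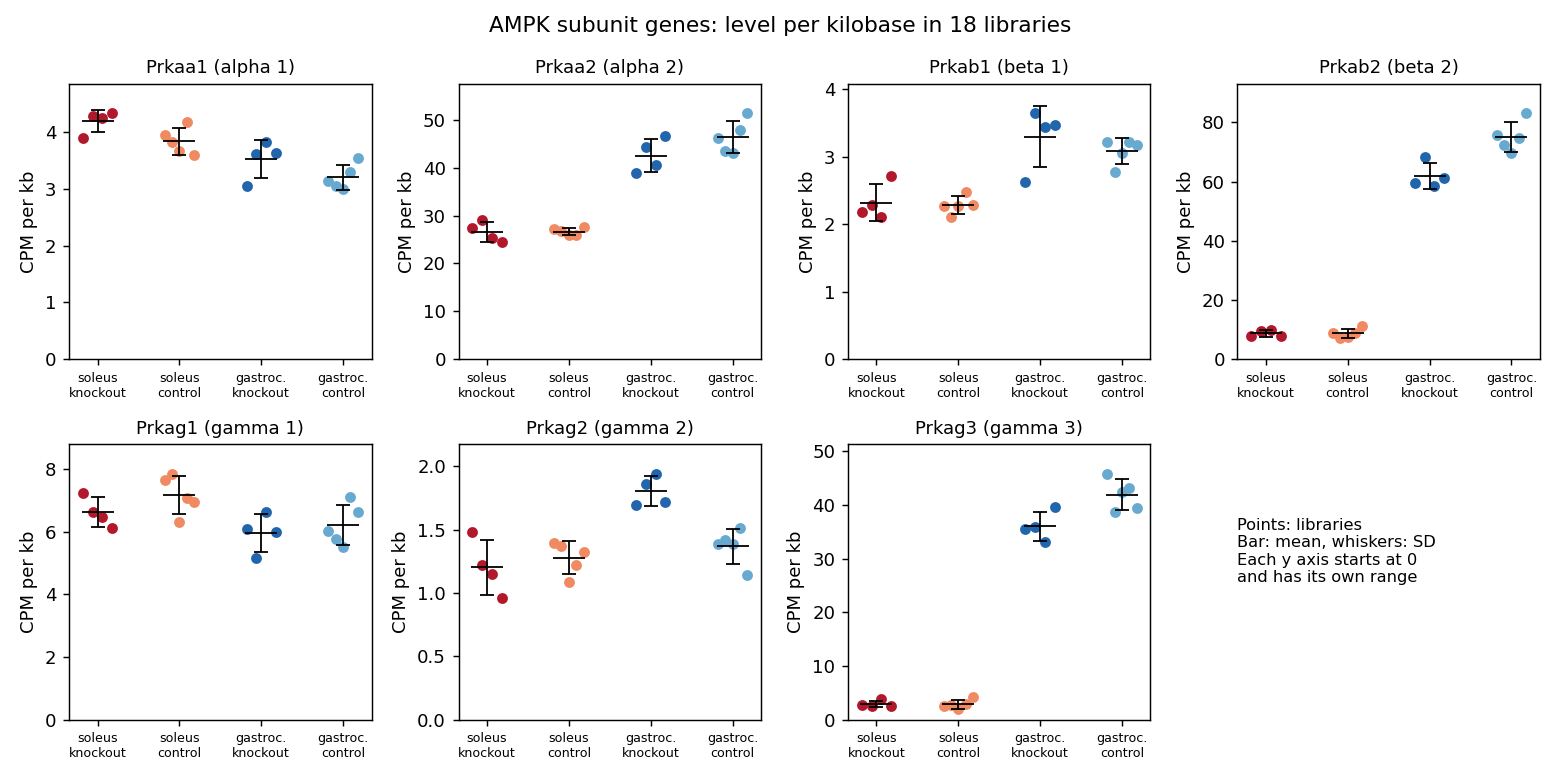
Level of each AMPK subunit gene in CPM per kilobase, with 1 point per library, the group mean as a bar and the SD as whiskers; each vertical axis starts at 0 and has its own range. The soleus points of Prkab2 (7.17 to 11.2) and Prkag3 (2.05 to 4.28) lie far below the gastrocnemius points (58.6 to 83.1 and 33.0 to 45.8).

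**Figure D2:**
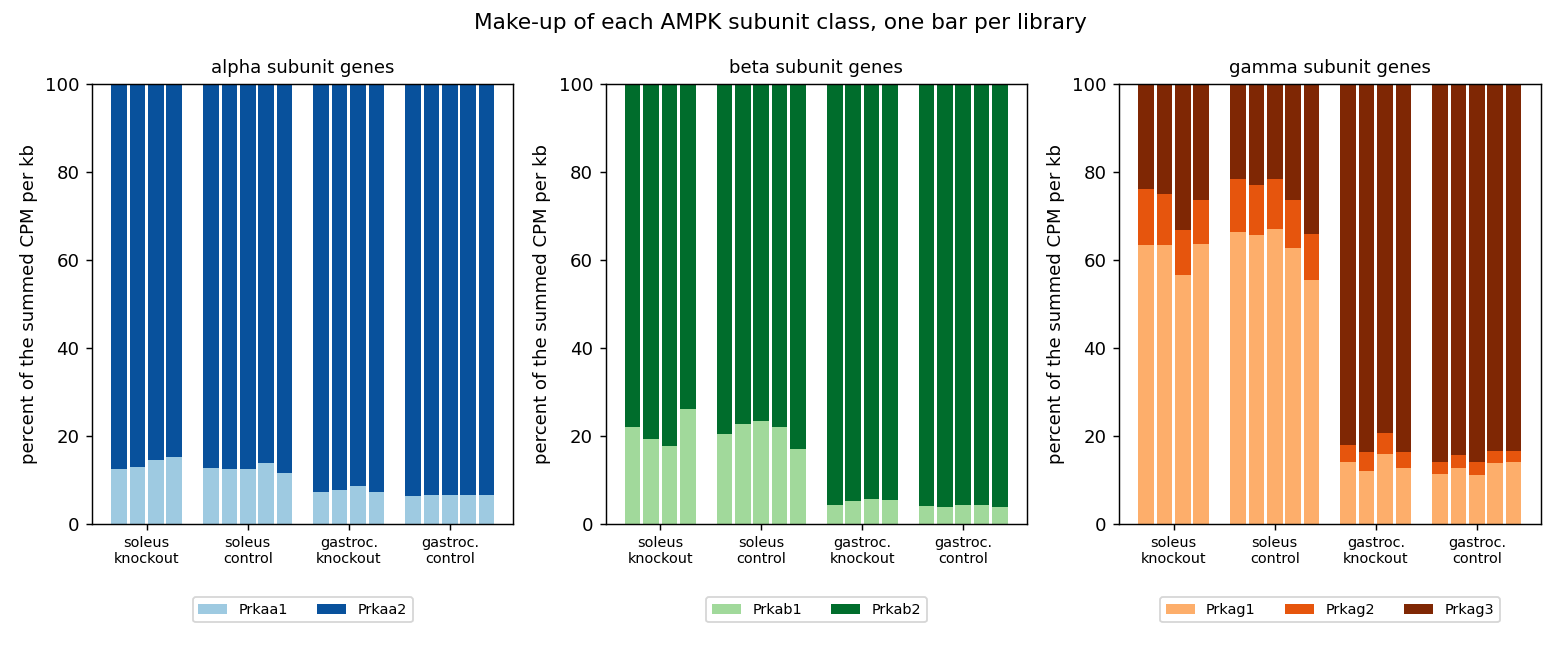
Make-up of the alpha, beta and gamma classes in each library, as the percentage of the class's summed CPM per kilobase given by each gene. Prkag3 fills 79.4% to 86.1% of each gastrocnemius gamma bar and 21.6% to 34.1% of each soleus gamma bar.

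The comparison of soleus with gastrocnemius asks how the subunits differ between a muscle rich in slow and oxidative fibres and a mainly fast one. In control mice, 4 of the 7 genes were lower in soleus (Prkag3, Prkab2, Prkaa2 and Prkab1) and 1 was higher (Prkaa1), while Prkag1 and Prkag2 did not pass the test. Of all 18494 genes tested, 49.3% were called in this comparison, 27.4% higher and 21.9% lower in soleus, so the count of 5 in 7 is read against a wide background. The sizes of the lowest members stood further out: 44 tested genes had a lower fold change than Prkag3 and 85 a lower one than Prkab2. The median log2 fold change was -0.44 over the 7 genes and 0.08 over all genes tested. Muscle comparisons share their libraries with the knockout comparisons below, and the comparison in knockout mice is given beside that in controls gene by gene.

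The nucleotide-binding gamma class held both the largest difference and the smallest. Prkag3 (ENSMUSG00000006542; GRCm38 chromosome 1, 74738922 to 74749221, minus strand) was at 9.18, 10.1, 7.55, 10.96 and 15.8 CPM in soleus of controls (replicates 34, 36, 37, 38 and 41), against 169, 143, 157, 159 and 145 CPM in gastrocnemius of controls (replicates 1, 3, 4, 5 and 8). The lowest gastrocnemius library thus lay well above the highest soleus library, and the log2 fold change was -3.85 (adjusted p = 1.84e-12, SE 0.16). In knockout mice soleus held 10.1, 9.68, 14.04 and 9.33 CPM (replicates 35, 39, 40 and 42) and gastrocnemius 131, 132, 122 and 146 CPM (replicates 2, 6, 7 and 9), which made a log2 fold change of -3.62 (adjusted p = 3.76e-11, SE 0.18). The groups did not overlap in mice of either genotype, as was so for 36.7% of all genes tested in controls and 32.4% in knockout mice.

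Prkag1, the gamma gene expressed in most tissues (ENSMUSG00000067713; chromosome 15, 98812798 to 98831508, minus strand), was near level between the muscles. It stood at 12.5, 12.9, 10.4, 11.6 and 11.4 CPM in soleus and at 9.89, 9.47, 9.03, 11.6 and 10.9 CPM in gastrocnemius of controls. The groups overlapped, and the log2 fold change was 0.21 (95% interval 0.02 to 0.39, adjusted p = 0.0619). Without gastrocnemius control 5 or soleus control 37 this gene passed the test (log2 fold changes 0.26 and 0.25, adjusted p = 0.0284 and 0.0321). An antisense gene, B130046B21Rik, covers 44.6% of the exonic bases of Prkag1, but its mean count was 1.99% of that of Prkag1.

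Prkag2, known in humans for variants that cause a glycogen storage disease of the heart (ENSMUSG00000028944; chromosome 5, 24862744 to 25100642, minus strand), gave 9.04, 8.88, 7.02, 7.91 and 8.59 CPM in soleus and 8.97, 9.18, 9.00, 9.83 and 7.39 CPM in gastrocnemius of controls. These groups overlapped (log2 fold change -0.10, 95% interval -0.32 to 0.12, adjusted p = 0.47). In knockout mice it was lower in soleus, with 9.58, 7.93, 7.45 and 6.202 CPM against 11.0, 12.0, 12.6 and 11.1 CPM in gastrocnemius, without overlap (log2 fold change -0.59, SE 0.12, adjusted p = 0.000486). The antisense genes Prkag2os1 and Prkag2os2 overlap its exons, with mean counts of 3.61% and 1.85% of its own.

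In the scaffold class, Prkab2 (ENSMUSG00000038205; chromosome 3, 97658193 to 97673812, plus strand) was at 45.4, 36.5, 37.7, 44.7 and 57.1 CPM in soleus and at 386, 369, 355, 380 and 424 CPM in gastrocnemius of controls. The log2 fold change was -3.11 (SE 0.11, adjusted p = 2.79e-15). In knockout mice the values were 39.5, 48.6, 50.0 and 39.4 CPM in soleus and 303, 348, 298 and 312 CPM in gastrocnemius (log2 fold change -2.83, SE 0.12, adjusted p = 1.40e-13). No soleus library of either genotype came near a gastrocnemius library. Prkab1, the other beta gene (ENSMUSG00000029513; chromosome 5, 116013586 to 116024508, minus strand), differed far less: 6.95, 6.45, 6.93, 7.59 and 7.00 CPM in soleus against 9.87, 8.48, 9.38, 9.88 and 9.72 CPM in gastrocnemius of controls (log2 fold change -0.44, SE 0.10, adjusted p = 0.000648). In knockout mice Prkab1 was at 6.68, 7.00, 6.45 and 8.32 CPM in soleus and 8.05, 11.2, 10.6 and 10.6 CPM in gastrocnemius. There 1 soleus library lay above the lowest gastrocnemius library, and the log2 fold change was -0.51 (SE 0.11, adjusted p = 0.000728). When libraries were scaled by their totals only, which moved the median log2 fold change of all genes from 0.08 to 0.35 in controls, Prkab1 was no longer called (log2 fold change -0.18, adjusted p = 0.145) and Prkag1 was called higher in soleus (0.47, adjusted p = 0.000239).

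The promoters of the beta pair are shown because 1 gene of the pair differed widely between the muscles and the other little, and a stretch of the RefSeq promoter window of Prkag3 because that gene had the lowest fold change of the 7. Sequences are from RefSeq on GRCm38.p6, written 5′ to 3′ on the strand of the gene, and those of the beta genes stop at the start of the gene in the files. The Prkag3 stretch lies inside the gene as the files give it, whose span begins further upstream than the RefSeq start. Capitals mark the GC box, searched as GGGCGG on both strands (CCGCCC on the printed strand is a match on the other), in the first 2 and the E-box CAGCTG in the third, which reads the same on both strands.
Prkab2, chr3:97657962-97658192, plus strand: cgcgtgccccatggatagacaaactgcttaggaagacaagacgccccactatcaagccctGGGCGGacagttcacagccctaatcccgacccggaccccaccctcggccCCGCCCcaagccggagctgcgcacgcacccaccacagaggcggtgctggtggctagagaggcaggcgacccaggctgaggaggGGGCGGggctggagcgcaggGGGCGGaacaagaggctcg
Prkab1, chr5:116024509-116024678, minus strand: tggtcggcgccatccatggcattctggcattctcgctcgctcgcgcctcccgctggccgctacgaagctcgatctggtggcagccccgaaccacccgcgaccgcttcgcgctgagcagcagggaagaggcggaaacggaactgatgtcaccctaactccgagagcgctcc
Prkag3, chr1:74748978-74749007, minus strand: gcagtgcgggaaCAGCTGcgggttaagcgc
The printed stretch of Prkab2 (231 bases) holds 4 GC boxes and that of Prkab1 (170 bases) holds 0. In its window of 300 bases, Prkag3 had 0 as well. Prkaa1, the gene higher in soleus, had 1 on its own strand and 4 on the other. All 7 genes matched the table, with 9 windows of 300 bases in all, since Prkag2 has 3. The GC box stood in 6 of these 9 windows and in 35.7% of all 32851 promoter windows of that length. That share is not matched for base composition. GC content was 82.0% for Prkaa1, 72.7% for Prkaa2, 68.0% for Prkab2 and 65.3% for Prkab1. It was 79.3%, 69.7% and 50.3% for Prkag2, 54.7% for Prkag1 and 54.0% for Prkag3, against a median of 52.7% over all windows. The E-box CANNTG, bound by myogenic factors among others, stood in 5 of 9 and in 72.3% of all windows. Its form CAGCTG, which every search for CANNTG also finds, stood in 1 of 9, that of Prkag3, and in 16.3% of all. TATAAA, on either strand, was in 0 of 9 and in 13.6% of all windows, and the MEF2 consensus in 0 of 9 and in 3.19%. These matches describe letters in the windows and do not show binding.

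The catalytic pair differed by less than the beta-2 and gamma-3 genes, and in opposite directions. Prkaa2 (ENSMUSG00000028518; chromosome 4, 105029874 to 105109890, minus strand) was at 216, 213, 206, 207 and 220 CPM in soleus and at 368, 346, 344, 381 and 410 CPM in gastrocnemius of controls, with no overlap (log2 fold change -0.80, SE 0.07, adjusted p = 1.86e-09). In knockout mice it was at 218, 232, 202 and 195 CPM in soleus against 309, 353, 323 and 371 CPM in gastrocnemius (log2 fold change -0.68, SE 0.07, adjusted p = 2.33e-07). Prkaa1 (ENSMUSG00000050697; chromosome 15, 5143861 to 5181899, plus strand) was the gene that was higher in soleus. It gave 18.4, 17.8, 17.1, 19.5 and 16.7 CPM in soleus against 14.6, 14.2, 13.9, 15.4 and 16.5 CPM in gastrocnemius of controls, so the lowest soleus library lay just above the highest gastrocnemius library (log2 fold change 0.26, SE 0.07, adjusted p = 0.00521). In knockout mice it was at 18.1, 19.98, 19.8 and 20.2 CPM in soleus against 14.2, 16.8, 17.8 and 16.9 CPM in gastrocnemius (log2 fold change 0.25, SE 0.08, adjusted p = 0.0188). Leaving out gastrocnemius knockout 2 ended that call (log2 fold change 0.18, adjusted p = 0.0783).

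In knockout mice 6 of 7 genes were called between the muscles, 1 higher and 5 lower in soleus, against 37.8% of all 18494 genes tested (19.2% higher and 18.5% lower in soleus). Summed per kilobase over each class, soleus of controls held 61.5% of the alpha, 14.0% of the beta and 22.9% of the gamma level of gastrocnemius of controls. In knockout mice the same shares were 66.8%, 16.9% and 24.5%. Slow-fibre genes moved with these differences: all 12 on the list were higher in soleus of controls, and their summed level averaged 24150 CPM in soleus and 1404 CPM in gastrocnemius of controls. Of 12 fast-fibre genes 10 were lower and 1, Myh2, was higher in soleus, with summed means of 40250 and 169100 CPM in soleus and gastrocnemius. Markers of other cells were also called, where 27.4% of all genes tested in controls were called higher and 21.9% lower in soleus. In soleus of controls 6 of 6 endothelial markers were higher, with summed levels of 445 to 489 CPM in soleus against 331 to 359 CPM in gastrocnemius. Of 6 fibroblast markers 4 were lower (981 to 1536 CPM against 1850 to 3075 CPM), of 6 Schwann cell markers 3 were lower (69.0 to 241 CPM against 216 to 373 CPM), and of 6 macrophage markers 2 were lower (47.7 to 78.4 CPM against 72.1 to 99.9 CPM). Satellite cell markers had 2 of 6 higher, adipocyte markers 1 of 6 higher, and smooth muscle markers 1 higher and 1 lower. Counts of 1 or 2 in 6 do not stand out from the shares over all genes. In whole muscle, fewer cells of a type and less RNA per cell cannot be told apart, and the part of fibre type and of these cells in the subunit differences was not tested.

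**Figure D3:**
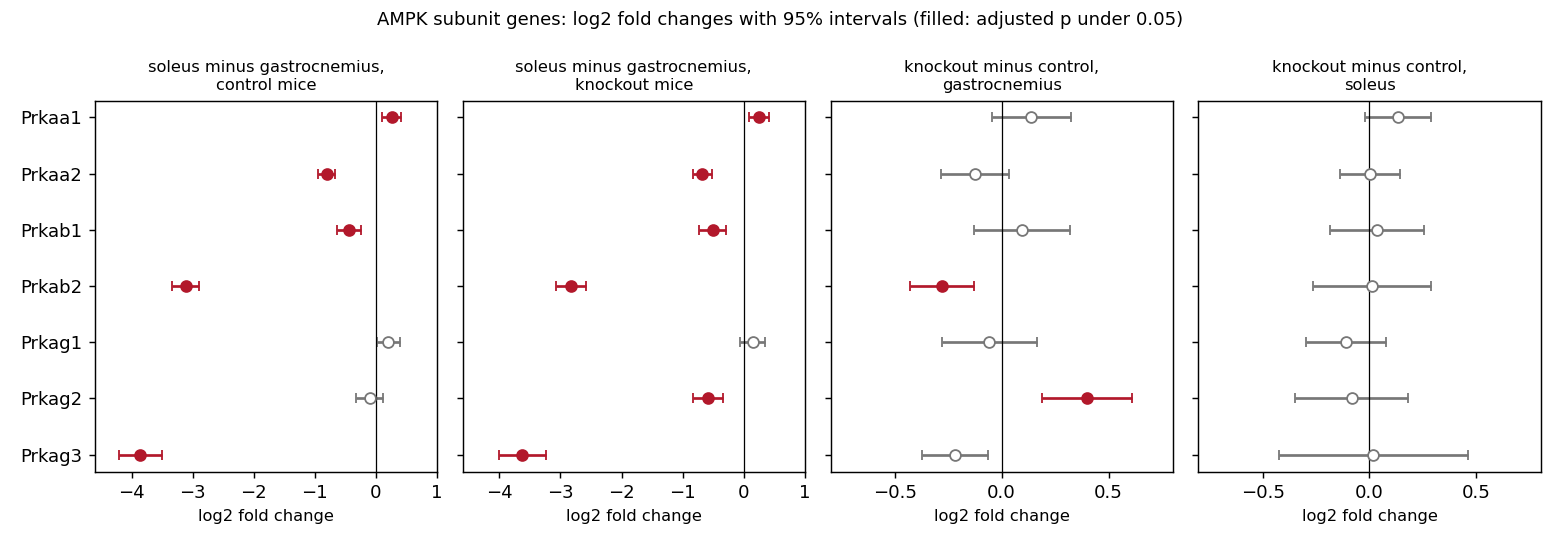
Log2 fold change of each AMPK subunit gene with its 95% interval in 4 comparisons; filled red points passed an adjusted p of 0.05 and open grey points did not. The first 2 panels share a scale that reaches -3.85 for Prkag3, and the 2 knockout panels have a narrower scale on which Prkab2 (-0.28) and Prkag2 (0.40) in gastrocnemius are the filled points.

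The knockout comparison asks how muscles of floxed mice with HSACre differed from those of floxed controls. In gastrocnemius 2 of 7 subunit genes passed the test: Prkab2 fell and Prkag2 rose in knockout mice. Over all 16393 genes tested 3.78% were called, 1.77% higher and 2.01% lower. Prkab2, the main beta gene of this muscle, was at 303, 348, 298 and 312 CPM in knockout mice (replicates 2, 6, 7 and 9) against 386, 369, 355, 380 and 424 CPM in controls (replicates 1, 3, 4, 5 and 8). All knockout libraries lay below all controls, at a log2 fold change of -0.28 (SE 0.07, 95% interval -0.43 to -0.13, adjusted p = 0.0409). Prkag2 was at 11.0, 12.0, 12.6 and 11.1 CPM in knockout mice against 8.97, 9.18, 9.00, 9.83 and 7.39 CPM in controls. All 4 knockout libraries lay above all controls, at a log2 fold change of 0.40 (SE 0.10, 95% interval 0.19 to 0.61, adjusted p = 0.0382). Groups that do not overlap were found for these 2 of the 7 genes and for 8.41% of all genes tested.

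Both calls lay close to the threshold. With all 18 libraries in 1 fit neither gene was called (Prkab2 adjusted p = 0.155, Prkag2 0.0529), and with libraries scaled by totals only Prkab2 was not (0.104). Prkab2 lost its call without control 1, 4, 5 or 8 (adjusted p = 0.101, 0.0566, 0.0925 and 0.0978) or without knockout 2, 7 or 9 (0.0594, 0.107 and 0.0985), with log2 fold changes between -0.33 and -0.24. Prkag2 lost its call without control 1, 4, 5 or 8 (adjusted p = 0.0846, 0.0844, 0.0609 and 0.0785) or without knockout 6, 7 or 9 (0.119, 0.101 and 0.0626), with log2 fold changes between 0.34 and 0.43.

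The other gamma and alpha genes of gastrocnemius did not pass the test. Prkag3 was at 131, 132, 122 and 146 CPM in knockout mice against 169, 143, 157, 159 and 145 CPM in controls, where only the highest knockout library reached into the control range (log2 fold change -0.22, 95% interval -0.37 to -0.07, adjusted p = 0.108). Prkaa2 was at 309, 353, 323 and 371 CPM against 368, 346, 344, 381 and 410 CPM (log2 fold change -0.12, adjusted p = 0.407), with overlapping groups. The remaining 3 genes had log2 fold changes of 0.14 (Prkaa1, adjusted p = 0.429), 0.09 (Prkab1, adjusted p = 0.704) and -0.06 (Prkag1, adjusted p = 0.831). The median over the 7 genes was -0.06, and 0.02 over all genes tested.

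As shares of each class, the gastrocnemius of knockout mice held less of the leading gene. Prkaa2 gave 91.4% to 92.8% of the alpha level in knockout mice and 93.5% to 93.6% in controls. Prkab2 gave 94.4% to 95.8% of the beta level in knockout mice and 95.8% to 96.3% in controls, with the nearest libraries of the groups at 95.78% and 95.80%. Prkag2 gave 3.63% to 4.66% of the gamma level in knockout mice and 2.41% to 3.08% in controls, and Prkag3 79.4% to 83.7% and 83.4% to 86.1%, with overlap. These shares are from the same libraries as the fold changes and add no independent test. Summed slow-fibre genes also ran lower, at 583 to 1137 CPM in knockout mice against 1089 to 1647 CPM in controls (1 of 12 genes passed the test, lower), and summed fast-fibre genes stood at 147500 to 163000 CPM against 153700 to 179900 CPM (0 of 12 passed). Summed macrophage markers were at 89.0 to 153 CPM in knockout mice against 72.1 to 99.9 CPM in controls and summed fibroblast markers at 2481 to 4100 CPM against 1850 to 3075 CPM, with 0 of 6 genes of either list past the test. Endothelial markers, at 336 to 375 CPM against 331 to 359 CPM, lay closer together. Summed satellite cell markers were at 50.5 to 80.4 CPM in knockout mice against 53.5 to 65.0 CPM in controls, and 1 of 6, Pax7, was called higher (log2 fold change 0.85, adjusted p = 0.0219). Among 6 skeletal fibre markers 1, Tcap, was called lower (-0.41, adjusted p = 0.0263), and the slow-fibre gene called lower was Myl2 (-0.95, adjusted p = 0.0113). These 3 were named after their values were seen. Pax7 was not called without control 1, 4 or 5 (adjusted p = 0.0594, 0.0619 and 0.0609) or knockout 6, 7 or 9 (0.0775, 0.0585 and 0.0512). Tcap was not called without control 4, 5 or 8 (0.065, 0.0671 and 0.0532) or knockout 6 or 7 (0.0994 and 0.0605), nor Myl2 without knockout 7 (0.0588). Of the adipocyte, Schwann cell and smooth muscle markers 0 of 6 passed in each list. The part of these cells in the subunit values was not tested.

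In soleus 0 of 7 subunit genes passed the test, where 10 of 18087 genes tested (0.0553%) were called by edgeR. At an unadjusted p under 0.05 there were 1481 genes, none of them a subunit gene, and DESeq2 called 168 genes, also without a subunit gene. The log2 fold changes ran from -0.11 for Prkag1 to 0.13 for Prkaa1, and the adjusted p from 0.679 to 0.999. Prkaa1, the nearest to the threshold, was at 18.1, 19.98, 19.8 and 20.2 CPM in knockout mice (replicates 35, 39, 40 and 42) against 18.4, 17.8, 17.1, 19.5 and 16.7 CPM in controls (replicates 34, 36, 37, 38 and 41), with overlap. The intervals leave room for changes of the size seen in gastrocnemius for some genes and not for others. For Prkab2 the interval was -0.27 to 0.29, for Prkag2 -0.35 to 0.18, and for Prkag3 -0.42 to 0.46, the widest of the 7. That for Prkaa2 was -0.14 to 0.14. Summed slow-fibre genes were lower in soleus as well, at 14190 to 20710 CPM in knockout mice against 21420 to 26280 CPM in controls, without overlap. Of these genes 0 of 12 passed the test, and 1 of 12 had a positive fold change. Summed fast-fibre genes stood at 33810 to 46310 CPM against 37350 to 43540 CPM (0 of 12 passed). The part of fibre type in the subunit values of soleus was not tested.

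Whether the knockout effect differed between the muscles was tested directly, as the effect in soleus minus that in gastrocnemius. None of the 7 genes passed, where 13 of 18494 genes (0.0703%) were called by edgeR, 999 had an unadjusted p under 0.05 and DESeq2 called 53. Prkag2 came nearest, with a difference of -0.49 on the log2 scale (SE 0.16, 95% interval -0.82 to -0.16, adjusted p = 0.584). It was the only subunit gene among the 999 (unadjusted p = 0.00594 by edgeR). For Prkab2 the difference was 0.28 (95% interval -0.03 to 0.60, adjusted p = 0.964). The other 5 lay between -0.07 and 0.23.

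The order of the 4 groups, from these levels, differed from gene to gene. For Prkab2, Prkag3 and Prkaa2 gastrocnemius of controls was highest, followed by gastrocnemius of knockout mice, and the 2 soleus groups were lowest and differed by less than their spread. Among those 3 genes the step between the gastrocnemius groups passed the test for Prkab2. For Prkab1 and Prkag2 gastrocnemius of knockout mice was highest, and for Prkag2 the other 3 groups, at means of 7.79, 8.29 and 8.87 CPM in knockout soleus, control soleus and control gastrocnemius, were not separated by any test made between them. For Prkaa1 the knockout soleus was highest at 19.5 ± 0.93 CPM (SD, n = 4) and the control gastrocnemius lowest at 14.9 ± 1.04 CPM (SD, n = 5). Prkag1 ran between 9.78 and 11.8 CPM in mean, and no comparison of its groups passed in the fits with TMM scaling and no library left out.

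Upstream of the complex, the list held 10 kinases and scaffolds that lead to phosphorylation of alpha, LKB1 and its partners among them, but also other kinases such as Map3k7. In gastrocnemius 1 of 10 passed the test in the knockout comparison, where 3.78% of all genes were called. Stk11, which encodes LKB1 itself, fell, with 90.0 to 105 CPM (median 98.6) in knockout mice against 112 to 129 CPM (median 121) in controls, without overlap (log2 fold change -0.31, SE 0.07, adjusted p = 0.0267). Its call was lost without control 1, 4 or 5 (adjusted p = 0.062, 0.0613 and 0.0655) or without knockout 6 or 7 (0.0995 and 0.0599). Between the muscles of controls, 1 of the 10 was higher in soleus and 5 were lower, against 27.4% and 21.9% of all genes. Cab39, the MO25 scaffold of LKB1, was higher (log2 fold change 0.28, SE 0.08, adjusted p = 0.00384), and Stradb (-0.44), Stk11 (-0.40) and Strada (-0.35), the pseudokinase partners and LKB1, were lower. The groups overlapped for Strada. Of its exonic bases 2.84% are shared with Ccdc47 on the same strand, whose mean count was 648% of that of Strada. The median of the list was -0.18 for the knockout in gastrocnemius and -0.17 between the muscles.

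Of 7 phosphatase genes that act on the alpha subunit or belong to the same phosphatase families, 1 fell in gastrocnemius of knockout mice, where 2.01% of all genes were called lower. This was Ppm1a, a PP2C phosphatase, at 102 to 109 CPM in knockout mice against 124 to 136 CPM in controls (adjusted p = 0.0184 for a log2 fold change of -0.28, SE 0.06). The call was lost without control 5 (adjusted p = 0.0543) or knockout 6 (0.0606). Between the muscles 3 were higher and 2 lower in soleus, so that 5 of 7 were called against 49.3% of all genes. Ppp2ca, a catalytic subunit of PP2A, averaged 130 CPM in soleus and 71.6 CPM in gastrocnemius of controls (log2 fold change 0.86, SE 0.07, adjusted p = 4.15e-10), followed by Ppm1e (0.83) and Ppm1k (0.78). Ppp1ca (-0.41) and Ppp2cb (-0.19) were lower, and Ppp2cb lost its call without gastrocnemius control 4 (adjusted p = 0.0574) or soleus control 34, 36 or 37 (0.0542, 0.0526 and 0.0624).

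The 8 partners of AMPK on the list included folliculin, its interacting proteins, the sestrins and Cidea. None passed in either knockout comparison, and 5 of 8 were higher and 0 lower in soleus of controls, against 27.4% and 21.9% of all genes. Fnip2, which encodes a folliculin-interacting protein, averaged 28.7 CPM in soleus and 11.4 CPM in gastrocnemius (log2 fold change 1.33, SE 0.19, adjusted p = 1.75e-05), and its relative Fnip1 had a log2 fold change of 0.91. Cidea, a lipid droplet protein, had the largest fold change (2.90, SE 0.37, adjusted p = 2.11e-06) at a low level, 3.42 CPM in soleus and 0.453 CPM in gastrocnemius.

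Of 33 genes for direct substrates of AMPK, 2 fell and 0 rose in gastrocnemius of knockout mice, where 2.01% of all genes were called lower and 1.77% higher. The count is small and was not tested against those shares, so it is not read as a result about the substrates. Srebf1, which encodes the lipogenic factor SREBP1 and whose protein is also cleaved by S1P, was at 28.3 to 38.9 CPM in knockout mice against 41.0 to 56.7 CPM in controls (adjusted p = 0.0182 for a log2 fold change of -0.59, SE 0.12). Its exons share 109 bases with Rai1 on the other strand, which had the higher mean count, and no label states the strand setting of the counting. The call was lost without control 5 (adjusted p = 0.0519) or knockout 6 or 7 (0.0636 and 0.0519). Eef2k, the kinase that slows translation elongation, was at 81.4 to 107 CPM against 107 to 124 CPM (adjusted p = 0.0448 for a log2 fold change of -0.31, SE 0.08). That call was lost without control 1, 3, 4, 5 or 8 (adjusted p = 0.0966, 0.0628, 0.0886, 0.102 and 0.0504) or knockout 6 or 7 (0.141 and 0.101).

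Between the muscles of controls, 12 of the 33 substrate genes were higher and 14 lower in soleus, where 27.4% and 21.9% of all genes tested were called in these directions. Pfkfb2 (log2 fold change 1.47, adjusted p = 3.68e-08) and Pfkfb3 (-3.46, adjusted p = 3.54e-06), a pair of enzymes that set the level of fructose 2,6-bisphosphate, went in opposite directions. Pfkfb3 averaged 21.7 CPM in soleus and 239 CPM in gastrocnemius. Acaca, the acetyl-CoA carboxylase of fatty acid synthesis, was higher (log2 fold change 1.04, SE 0.09, adjusted p = 3.04e-09), as was Ppargc1a, the coactivator of mitochondrial biogenesis (1.18, SE 0.35, adjusted p = 0.0118), whose groups overlapped. Eef2k (-1.03, adjusted p = 3.14e-10) and Nos1, the neuronal nitric oxide synthase of muscle (-1.21, adjusted p = 7.21e-05), were lower.

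Of the 14 AMPK-related kinases, which LKB1 can also activate in most cases, 13 were tested in the knockout comparisons and 0 passed in either muscle. Between the muscles 5 were higher and 5 lower in soleus, against 27.4% and 21.9% of all genes. The highest were Mark1 (log2 fold change 1.96, SE 0.16, adjusted p = 2.40e-09) and Nuak1 (1.75, SE 0.13, adjusted p = 7.35e-10) and Sik1 (0.85, SE 0.16, adjusted p = 0.000329), and the lowest were Hunk (-0.72, SE 0.23, adjusted p = 0.0132), Mark4 (-0.36) and Sik2 (-0.36). For Hunk, Mark4 and Sik2 the groups overlapped. Ppp2r1b, on the other strand, covers 14.98% of the exonic bases of Sik2, at a mean count of 27.41% of that of Sik2. Of 13 enzymes of adenine nucleotide and phosphocreatine balance, 0 passed in the knockout comparisons, and 2 were higher and 8 lower in soleus of controls, against the same shares of all genes. Ampd1, the muscle AMP deaminase, averaged 194 CPM in soleus and 901 CPM in gastrocnemius (log2 fold change -2.22, SE 0.08, adjusted p = 2.08e-15), whereas Ampd3, its relative, was higher in soleus (1.81, SE 0.09, adjusted p = 6.06e-13). Ckm, the cytosolic creatine kinase, was lower (-1.88, SE 0.10) and Ckmt2, the mitochondrial one, was higher (0.96, SE 0.09). Nt5c1a, a nucleotidase that acts on AMP, was lower (-1.80, SE 0.13). In the knockout soleus 0 genes of all 6 lists passed the test.

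**Figure D4:**
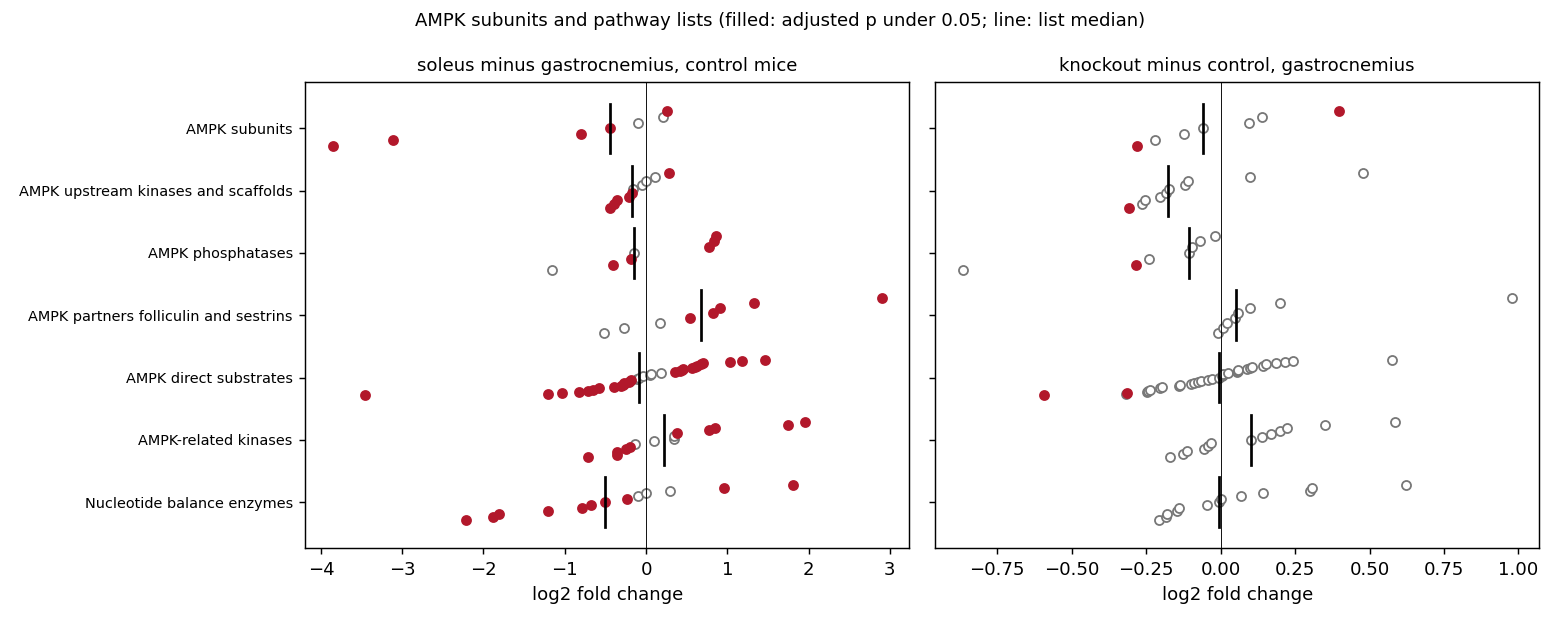
Log2 fold change of each gene of the AMPK subunit set and of 6 lists of the pathway, in the muscle comparison of controls (left) and the knockout comparison of gastrocnemius (right); filled red points passed an adjusted p of 0.05 and black lines are list medians. The horizontal scales differ: the left panel runs to -3.85 (Prkag3) and the right panel has its lowest filled point at -0.59 (Srebf1).

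The genes whose log2 levels ran most closely with each subunit gene over the 18 libraries are given as a description, with Pearson's r. An r over both muscles includes the difference between them, so r within the 9 soleus and the 9 gastrocnemius libraries is added, in that order. How much of each r that difference makes was not computed. All values share the library depth and scaling. Among 11481 genes, Prkag3 was the third closest to Prkab2 and Prkab2 the closest to Prkag3 (r = 0.996 over 18 libraries, 0.777 within soleus and 0.660 within gastrocnemius). Camk2a, a calcium-dependent kinase, and Setd7, a lysine methyltransferase, completed the first 3 places for both genes. With Prkab2 their r within the muscles was 0.729 and 0.818 for Camk2a and 0.736 and 0.782 for Setd7, and with Prkag3 it was 0.674 and 0.760 for Camk2a and 0.856 and 0.544 for Setd7. Close to Prkaa2 were Tigar (r = 0.991; 0.593 and 0.936) and the splicing regulator Mbnl1 (0.988; 0.849 and 0.797). For Prkab1 the first 3 were Smyd1, a methyltransferase of striated muscle (0.957; 0.789 and 0.875), Mrtfa (0.954; 0.6253 and 0.905) and Rgmb (0.951; 0.613 and 0.934). For Prkaa1 they were 1190002N15Rik (0.941; 0.832 and 0.874), Fabp5 (0.932; 0.748 and 0.913) and Stom (0.908; 0.301 and 0.954). The neighbours of Prkag1 lay further off, with Aasdhppt (0.828; 0.879 and 0.644), Atp5c1 (0.805; 0.564 and 0.769) and Acp1 (0.802; 0.483 and 0.796). Those of Prkag2 were Snx33 (0.821; 0.452 and 0.840), Arhgef37 (0.817; 0.505 and 0.786) and Car3 (0.811; 0.650 and 0.709). Within a muscle several of these values were much lower than over the 18 libraries, above all that of Stom in soleus. Some were higher within 1 muscle, such as Stom in gastrocnemius and Aasdhppt in soleus. Within gastrocnemius, Prkab2 and Prkag2 ran in opposite directions (r = -0.857, n = 9 libraries of both genotypes, including the difference between these), and within soleus they did not (r = 0.134, n = 9).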

How the data were processed

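Total RNA of snap-frozen muscle was depleted of ribosomal RNA with KAPA RiboErase, per the labels' protocols. STAR 2.5.1a, bcl2fastq, featureCounts 1.4.6-p5 and Subread are named with the build GRCm38, per the submitters' processing notes. The annotation release, the strand setting and how multi-mapped reads were counted were not stated there. For each Ensembl gene the authors deposited raw read counts, with CPM and RPKM beside them. The deposited CPM and the deposited RPKM equalled the counts rescaled by library total and by gene length to within 4.9e-10, and only the counts were used. No rows were other than genes. Symbols came from GENCODE M21 (97.3% matched).

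The test was that of edgeR 4.0.16 under R 4.3.3 (TMM, filterByExpr with minimum count 10 and minimum total 15, robust quasi-likelihood F-test, Benjamini-Hochberg over all genes, threshold 0.05). Knockout comparisons used the 9 libraries of a muscle, and muscle comparisons and the difference of effects all 18 in 4 groups. DESeq2 1.42.0, limma 3.58.1 (voom), RLE scaling, library totals, no filter, other library sets and leaving out each library were alternatives. Chi-square per gene between replicates was 17.75 to 125.07 over the pairs, and none was merged. The fit was tested on simulated data. Likeness used log2(CPM + 0.5). Totals of 39.0 to 78.2 M counts set the precision; without molecular identifiers, reads are not independent molecules.

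The subunit genes, the pathway lists and the tests were chosen with earlier results of these data known. Named were all subunit genes, every pathway gene called in a knockout comparison, the 3 highest and 3 lowest called per list between muscles, and the 3 nearest genes by Pearson's r. A neighbour of Prkaa2 is not reported here.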

Additional observations from a re-analysis of the deposited data

Results flagged for a closer look

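Of 28 groups of values (7 subunit genes in 4 groups of libraries), 1 held a library far from the others of its group, where chance gives about 1 in 20. Prkag3 was at 14.04 CPM in replicate 40 of the knockout soleus, and the other 3 libraries of that group lay between 9.33 and 10.1 CPM. The control soleus reached 15.8 CPM in replicate 41. Without replicate 40 the knockout comparison of Prkag3 in soleus gave a log2 fold change of -0.14, against 0.02 with it, and neither passed the test. Myh4 in the knockout soleus was at 4413, 3962, 5617 and 223 CPM in replicates 35, 39, 40 and 42. In replicate 41 it was at 4440 CPM, the highest of the control soleus. The reason for the high value of Prkag3 was not tested.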

How the results depend on the processing

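Counts of called subunit genes stayed within 1.5 times of those reported, under every alternative run, in soleus knockout (0), both muscle comparisons (5 to 6) and the difference of effects (0). In gastrocnemius knockout the count of 2 became 1 with library totals only, 0 with all 18 libraries in 1 fit, 0 to 2 leaving out each library, and 3 by DESeq2, which added Prkag3 (adjusted p = 0.0495). Prkab2 passed under 6 and Prkag2 under 7 of 15 alternatives, each without a change of sign; with all 18 libraries their adjusted p was 0.155 and 0.0529 (Pax7: 0.137), and with library totals that of Prkab2 was 0.104. Library totals also ended the gastrocnemius calls of Stk11, Ppm1a and Eef2k (adjusted p = 0.0644, 0.0583 and 0.085) and the muscle call of Prkab1 in knockout mice (0.058), and called Prkag1 there (0.0062). Between the muscles of controls they ended the calls of Hunk, Mark4, Ppp1ca, Sik2, Stk11 and Strada. Small values changed sign. With library totals these were Prkag1 in gastrocnemius knockout (0.0032) and Prkag2 (0.17) and Ppp2cb (0.075) between muscles of controls. Prkaa2 in soleus knockout was -0.00097 by voom and -0.0044 with all libraries. The difference of effects of Prkaa1 was 0.026 by DESeq2, 0.0011 by voom and 0.024 with RLE. Leaving out each library gave ranges across 0 of -0.11 to 0.0050 for Prkag1 in gastrocnemius knockout, -0.043 to 0.036 (Prkaa2), -0.055 to 0.12 (Prkab2), -0.055 to 0.077 (Prkab1), -0.19 to 0.0071 (Prkag2) and -0.14 to 0.20 (Prkag3) in soleus knockout, and -0.075 to 0.065 (Prkaa1) and -0.12 to 0.032 (Prkag1) in the difference of effects. None of these passed the test under any alternative, apart from the muscle difference of Ppp2cb, which was called with all libraries. The cause was not tested. DESeq2 called 1230 genes in gastrocnemius, against 619. No paired analysis was run, because no label pairs the libraries and the groups compared share no replicate numbers. The titles list the genotypes in the same order in both muscles, so the libraries of the muscles may come from the same mice. That was not tested, and the muscle comparisons and the difference of effects treat the libraries as independent.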
